A study of Mus musculus with 10 samples.

Results

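The mitochondrial ribosomal protein genes were taken as all genes whose symbol is Mrpl or Mrps followed by a digit. Of the 19938 genes that could be read on the arrays, 77 met this rule, out of 78 such protein-coding genes in the RefSeq annotation. The missing gene, Mrpl53, shared its probe set with Ccdc142 and was left aside. By structure of the mammalian particle, 26 of the 77 belong to the small subunit and 50 to the large subunit. Mrps18a and Mrps30 are counted in the large subunit, where structures place them despite their names. Mrps36 is counted in neither, since its protein is a subunit of the 2-oxoglutarate dehydrogenase complex. The 77 genes lie on 17 chromosomes, and 3 of them, Mrps6, Mrpl39 and Mrpl40, lie on mouse chromosome 16 (Mmu16). Mrps6 is present in 3 copies in the mutant mice, and the other 76 members are present in 2.

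RNA was taken from both whole hippocampi of male mice aged 16 weeks, 5 Dp5/Dp1 animals and 5 control littermates, and each animal was run on its own Mouse Gene ST array (Affymetrix). Dp5/Dp1 mice are compound heterozygotes that carry Dp5Yah and Dp1Rhr, each a segmental duplication of Mmu16 in a region homologous to human chromosome 21 (Hsa21), on opposite chromosomes. Controls are wild type for both. The condition label of the mutant arrays names both duplications, whereas their titles call them Dp5Yah mutants and add the compound model only in brackets. On the arrays, with a limma adjusted p under 0.05, 25 of 82 genes of the Dp5Yah interval and 12 of 31 of the Dp1Rhr interval were higher in mutants and 0 were lower. The mean log2 level over the Dp5Yah genes was 7.28 to 7.34 on mutant arrays and 7.09 to 7.17 on control arrays. Over the Dp1Rhr genes it was 8.21 to 8.26 and 8.03 to 8.05, so the groups did not overlap in either interval. The labels give a C57BL/6N background and the study's methods C57BL/6J. Dp5Yah was made with loxP sites in App and Runx1 and holds the genes from Cyyr1 to Clic6. Dp1Rhr runs from Cbr1 to Fam3b and holds no member. Per the study's main methods, Mrpl39, Atp5j and Gabpa, which lie on the far side of App, are not in 3 copies in this model. The supplementary methods give Dp5Yah coordinates that begin proximal to these genes and, taken literally, include them. Copy numbers here follow the main methods. On the arrays the mutant over control fold was 1.06 for Mrpl39, 1.04 for Atp5j and 0.98 for Gabpa. Per their labels, the controls are a reanalysis, and they were shared with other lines of the study.

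The mitochondrial ribosome translates the mRNAs of the mitochondrial genome, all of which encode subunits of the respiratory chain and the ATP synthase. Its RNAs are made inside the organelle, whereas all of its proteins are encoded in the nucleus, made in the cytosol and imported. Part of these proteins have a counterpart in the bacterial ribosome, and the rest are particular to mitochondria. Neurons rely on oxidative phosphorylation, and inherited defects of several of these proteins in people cause combined respiratory chain deficiency, often with disease of the brain. Mrps6 encodes a small-subunit protein with a bacterial counterpart, Mrpl39 and Mrpl40 encode large-subunit proteins particular to mitochondria.

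Mrps6 spans chr16:92058336-92112227 (GRCm38), plus strand, inside Dp5Yah. Its start region overlaps that of Slc5a3, the sodium and myo-inositol cotransporter, which spans 92058322 to 92087473 on the same strand. The annotated starts of both genes are 14 bases apart. The 250 bases before the start of Mrps6 are shown because all but the last 14 of them also lie before the start of Slc5a3, whose values are given below beside those of Mrps6. Capitals mark the 14 bases from the annotated start of Slc5a3 to the base before that of Mrps6. Mrpl39, on the minus strand at chr16:84718281-84735244, is the member nearest to Dp5Yah on the proximal side. It ends 718 kb before the start of Cyyr1, with 5 other measured genes between. The 250 bases before its start are shown for comparison, with capitals on the match to the core letters of the site of NRF1, a transcription factor of nuclear genes for mitochondrial proteins. Both are RefSeq sequences of GRCm38, 5′ to 3′ in the direction of transcription, chr16:92058086-92058335 and chr16:84735245-84735494.
Mrps6: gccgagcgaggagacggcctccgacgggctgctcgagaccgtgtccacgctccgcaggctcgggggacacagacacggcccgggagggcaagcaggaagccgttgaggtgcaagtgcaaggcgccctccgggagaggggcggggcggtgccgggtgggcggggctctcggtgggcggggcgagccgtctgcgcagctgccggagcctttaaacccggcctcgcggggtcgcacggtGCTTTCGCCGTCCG
Mrpl39: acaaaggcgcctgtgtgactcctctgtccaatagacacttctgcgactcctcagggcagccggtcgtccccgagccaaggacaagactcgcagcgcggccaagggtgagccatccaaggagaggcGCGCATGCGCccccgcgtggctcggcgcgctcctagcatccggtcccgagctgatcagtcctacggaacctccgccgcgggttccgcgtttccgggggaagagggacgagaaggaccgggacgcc

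Windows of 250 bases before to 50 bases after the start were given for 68 of the 77 members. They were searched on both strands for core letters of 3 factors known for promoters of this kind, and any match in a window counted once. CCGGAAG, the GABPA core, was found in 24 of the 68 member windows (35.3%) and in 12.5% of the 15614 windows of all genes on the array. GCGCATGC, the NRF1 core, was found in 8 member windows (11.8%) and in 3.90% of all windows. It overlaps its own reverse complement in the run marked in Mrpl39. AAGATGGC, the YY1 core, was found in 12 member windows (17.6%) and in 3.43% of all windows. The window of Mrps6 held none of the 3 words, that of Mrpl39 held the NRF1 core only. Gabpa itself lies on Mmu16 beside Atp5j and is measured below.

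All levels are RMA log2 expression values, and differences are Dp5/Dp1 minus control on the log2 scale. Levels are not compared between genes, since probe sets differ in brightness. In the text, "called" and "rose" mean a limma adjusted p under 0.05 over all 19938 genes. On the control arrays, Mrps6 measured 9.09, 8.86, 9.26, 9.25 and 9.16 in replicates 1 to 5. On the Dp5/Dp1 arrays it measured 9.44, 9.41, 9.63, 9.56 and 9.80. All 5 mutants lay above all 5 controls. Only 152 of all genes, 0.762%, showed this separation upwards, and 64, 0.321%, showed it downwards. Mrps6 was the only member with either pattern.

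The group means of Mrps6 were 9.12 ± 0.16 in controls and 9.57 ± 0.16 in Dp5/Dp1 mice (SD, n = 5 each), a difference of 0.45 ± 0.09 (SE), or 1.36-fold. The 95% interval of the fold ran from 1.20 to 1.55 and so included the 1.5-fold that an equal output of 3 copies would give. The exact two-sided permutation test gave p = 0.00794, the smallest that 5 against 5 arrays allow. In limma, however, the adjusted p over all genes was 0.11, so Mrps6 was not called. Of the 82 genes measured from Cyyr1 to Clic6, 25 were called, with differences of 0.27 to 0.66. Mrps6 ranked 11 by the size of its difference, and 18 of the 25 called genes had a smaller one. Its SE of 0.0864 was above that of every called gene in the interval (0.0357 to 0.0793). A call itself depends on the SE, so the called genes were in part selected for small ones.

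Some other settings brought Mrps6 past the threshold. With the mean of choroid plexus markers as a covariate, the difference was 0.48 ± 0.08 and the limma adjusted p 0.026. With habenula markers added it was 0.47 and not called. FCROS, the rank method of the study, gave Mrps6 an f-value of 0.998, past its upper limit of 0.975. When each array was left out in turn, the difference stayed between 0.38 and 0.49, with the lowest value without control replicate 2. That array held the lowest Mrps6 value of the series. The adjusted p of Mrps6 stayed above 0.05 in these 10 fits, the lowest being 0.0905.

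**Figure D1:**
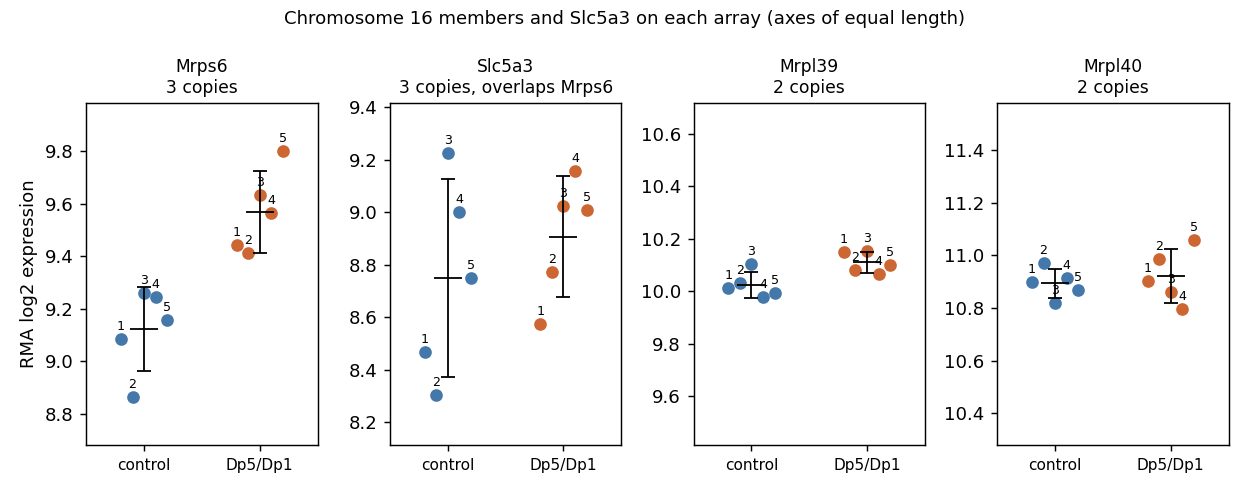
RMA log2 expression of Mrps6, Slc5a3, Mrpl39 and Mrpl40 on each of the 10 arrays, with points numbered by replicate and bars for the mean ± SD of 5 arrays. The vertical axes differ in position but have the same length in log2 units, so that distances can be compared. All 5 Dp5/Dp1 values of Mrps6 lie above the 5 controls, while the groups of the other 3 genes overlap.

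Slc5a3, inside Dp5Yah and beginning beside Mrps6, did not separate the groups. It measured 8.47, 8.30, 9.22, 9.00 and 8.75 in the controls and 8.57, 8.77, 9.02, 9.16 and 9.01 in the Dp5/Dp1 mice. Its difference was 0.16 ± 0.17 (limma adjusted p = 0.90, exact permutation p = 0.429), with a 95% interval from -0.20 to 0.52. This interval does not reach 0.58, the log2 of 1.5, and it includes 0. In the controls the 5 arrays fell in the same order for Slc5a3 as for Mrps6, from replicate 2 at the bottom to replicate 3 at the top. In the mutants they did not. Mrps6 minus Slc5a3 on the same array, a measure chosen after these values were seen, was 0.37 ± 0.24 in controls and 0.66 ± 0.18 in mutants (SD, n = 5, exact permutation p = 0.0556).

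Mrpl39 was measured at 10.01, 10.03, 10.10, 9.98 and 9.99 in controls and at 10.15, 10.08, 10.15, 10.06 and 10.10 in Dp5/Dp1 mice. The groups overlapped through control replicate 3, and the difference was 0.09 ± 0.03. The exact permutation test gave p = 0.0317 for this gene alone, and limma an adjusted p of 0.81 over all genes, so it was not called. Mrpl40, farther away at chr16:18872018-18876637, differed by 0.03 ± 0.05, with exact permutation p = 0.635. Mrps6 was also set against Mrpl39 within each array, which removes what all genes of an array share. Mrps6 minus Mrpl39 was -0.90 ± 0.16 in controls and -0.54 ± 0.16 in mutants (SD, n = 5). The difference of 0.36 ± 0.10 had an exact two-sided permutation p of 0.00794, the smallest that 5 against 5 arrays allow. Arrays ran from -1.17 to -0.73 in controls and from -0.71 to -0.30 in mutants, so the groups did not overlap but came close. The difference stayed between 0.29 and 0.40 when each array was left out in turn.

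Among the mitochondrial genes of the regions homologous to Hsa21, the remaining 4 measured here encode a transcription factor or parts of the oxidative phosphorylation system. Atp5o, a subunit of the ATP synthase stalk, lies just before Mrps6 in Dp5Yah and is also in 3 copies. It measured 10.70, 10.55, 10.75, 10.68 and 10.68 in controls and 11.10, 11.04, 11.25, 11.12 and 11.23 in mutants, and rose by 0.47 ± 0.05 (limma adjusted p = 0.00107). Mrps6 minus Atp5o, also chosen after the values were seen, shifted by -0.03 ± 0.06 (exact permutation p = 0.683). The SE of the difference was 0.0864 for Mrps6 and 0.0487 for Atp5o. Atp5j, another ATP synthase subunit next to Mrpl39 and in 2 copies, differed by 0.06 ± 0.03. Gabpa, which encodes the DNA-binding subunit of a factor of mitochondrial genes, differed by -0.03 ± 0.07. Ndufv3, a complex I subunit on chromosome 17, differed by 0.11 ± 0.06. None of these 3 was called (limma adjusted p from 0.83 to 0.96).

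None of the 77 members was called higher and none lower by limma, beside 0.201% of all genes called higher and 0.00502% called lower. At an unadjusted limma p under 0.05, 11 of the 77 were higher and none lower, beside 3.39% and 2.67% of all genes. FCROS, which ranks fold changes and gives no error per gene, passed 10 members as higher and none as lower, beside 2.84% and 2.21% of all genes. The 11 at an unadjusted p under 0.05 were Mrps6, Mrps17, Mrpl36, Mrpl20, Mrpl39, Mrps18b, Mrps36, Mrpl42, Mrpl41, Mrpl44 and Mrps18c. Genes of 1 particle share arrays and vary together, so these counts are a description.

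The direction was shared by most of the 2-copy members. Of the 76, 64 had a higher mean in Dp5/Dp1 mice and 12 a lower one, against 51.5% of all genes with a higher mean. The median difference was 0.05, against 0.0019 over all genes and -0.0021 over the genes that remained without the dimmest 40%. The differences ran from -0.08 to 0.25, that is, from 0.95-fold to 1.19-fold. For all 76, the upper end of the 95% interval lay below 0.58, so that a 1.5-fold increase was outside the interval of each. This line does not tell 3 copies from 2 on these arrays. The intervals of the triplicated Slc5a3 and Atp5o also ended below it, at 0.519 and 0.5800 against 0.5850. Called genes of the Dp5Yah interval differed by 0.27 to 0.66, and the interval of the 2-copy Mrpl20 reached 0.44. When each array was left out in turn, 61 to 70 of the 76 had a higher mean and the median lay between 0.04 and 0.06.

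**Figure D2:**
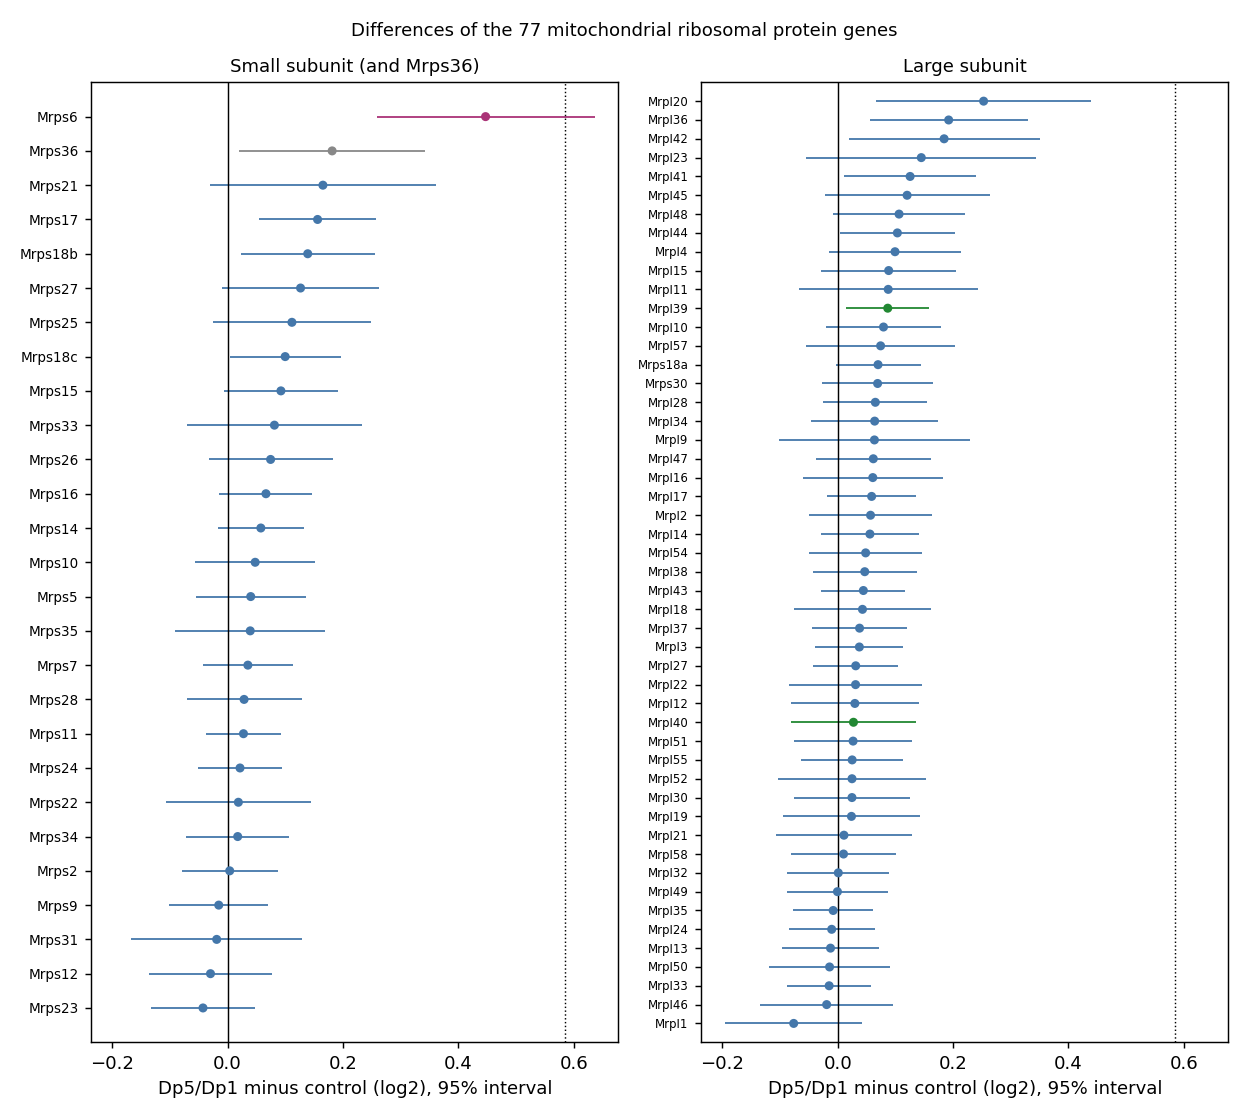
Dp5/Dp1 minus control difference (log2, points) with its 95% interval (lines) for the small-subunit genes with Mrps36 in grey on the left and the large-subunit genes on the right, sorted by size. Purple marks Mrps6 and green Mrpl39 and Mrpl40, the solid line is no difference and the dotted line a 1.5-fold increase. Mrps6 at 0.45 stands at the top and is the only member whose interval reaches the dotted line, and most other points lie slightly to the right of 0.

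The 2-copy members were next counted by their place in the particle. In the small subunit, 21 of 25 2-copy genes had a higher mean (median difference 0.04), and in the large subunit 42 of 50 (median 0.05). Of the 47 2-copy genes with a bacterial counterpart, 40 had a higher mean, with a median of 0.05. Of the 28 ribosomal genes without one, 23 did, with a median of 0.05. A list, which may not be complete, was made of 13 members in which inherited defects in people cause respiratory chain deficiency, such as Mrps22, Mrpl44 and Mrpl3. Of these 13, 11 had a higher mean, with a median of 0.03. No test was run between these groups.

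Among the 2-copy small-subunit genes, Mrps17, an rRNA-binding protein with a bacterial counterpart, had the lowest p. It measured 8.08, 8.03, 8.25, 8.02 and 8.07 in controls and 8.24, 8.20, 8.31, 8.29 and 8.19 in mutants. Only control replicate 3 reached into the range of the mutants. The difference was 0.16 ± 0.05, with a limma adjusted p of 0.64. Mrps18b, 1 of 3 mammalian relatives of bacterial S18, differed by 0.14 ± 0.05. Mrps18c, a second relative, differed by 0.10 ± 0.04, and Mrps18a, which sits in the large subunit, by 0.07 ± 0.03. The lowest small-subunit members were Mrps23 at -0.04 ± 0.04 and Mrps12 at -0.03 ± 0.05. Mrps12 belongs to the decoding centre.

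Among the large-subunit genes, Mrpl20, Mrpl36 and Mrpl42 had the largest differences. Mrpl20 measured 7.93, 7.66, 8.004, 7.99 and 7.91 in controls and 8.18, 7.85, 8.28, 8.17 and 8.27 in mutants. Replicate 2 was the low one in both groups, and the other 4 mutants lay above all controls. Its difference of 0.25 ± 0.09 was 1.19-fold, with a limma adjusted p of 0.75. Mrpl36, the counterpart of the smallest bacterial large-subunit protein, measured 9.84, 9.87, 9.87, 9.77 and 9.76 in controls and 10.07, 9.92, 10.03, 9.84 and 10.22 in mutants. Here mutant replicate 4 lay within the control range, and the difference was 0.19 ± 0.06.

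Mrpl42, particular to mitochondria, measured between 7.23 and 7.64 in controls and between 7.52 and 7.68 in mutants. Its controls fell apart, with replicates 3 and 4 at the level of the mutants, and its difference was 0.18 ± 0.08. Mrpl41 differed by 0.13 ± 0.05 and Mrpl44, which stands near the exit of the peptide tunnel, by 0.10 ± 0.05. Mrps30, a large-subunit protein despite its name, differed by 0.07 ± 0.04. The lowest values belonged to Mrpl1, a stalk protein, at -0.08 ± 0.05, and Mrpl46, at -0.02 ± 0.05. The sign of Mrpl46 turned when Dp5/Dp1 replicate 1 was left out, and that of Mrps12 when control replicate 3 was. The sign of Mrpl40 turned without Dp5/Dp1 replicate 5. Single arrays also moved other small values: Mrps23 was at -0.0097 without control replicate 3, and Mrps30 at 0.03 without Dp5/Dp1 replicate 3. Mrpl1 lay at -0.12 without Dp5/Dp1 replicate 2 and at -0.04 without Dp5/Dp1 replicate 1.

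Mrps36, the member that is no ribosomal protein, differed by 0.18 ± 0.07, close to the values of Mrpl36 and Mrpl42. It measured 8.04, 7.95, 8.25, 8.17 and 8.18 in controls and 8.31, 8.08, 8.40, 8.25 and 8.45 in mutants, and the groups overlapped. A second probe set of Mrps36 gave 0.20 ± 0.07. Pseudogenes of Mrps36, Mrpl23, Mrpl27 and Mrpl48 are annotated, and their probe sets may read these copies too. For the 8 members with 2 probe sets, the difference had the same sign on both for 6. The exceptions were Mrpl47 (0.06 and -0.0004) and Mrps5 (0.04 and -0.0018). Sizes could differ where the sign was the same. The second probe set of Mrpl41 gave 0.09 ± 0.05 with an unadjusted limma p of 0.10, against 0.13 ± 0.05 on the one read. That of Mrpl27 gave 0.09 ± 0.04, against 0.03 ± 0.03. Mrpl33 was the only member among the dimmest 40% of genes.

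The mean of the 76 2-copy members shows which mice carried the shift. On the control arrays it was 8.87, 8.86, 8.94, 8.87 and 8.88 in replicates 1 to 5. On the Dp5/Dp1 arrays it was 8.96, 8.90, 8.97, 8.90 and 8.97. Replicates 1, 3 and 5 of the mutants lay above all controls, whereas replicates 2 and 4 lay below control replicate 3. Of the 76 genes, 23 had their highest value of the 10 arrays in Dp5/Dp1 replicate 5, 15 in Dp5/Dp1 replicate 1 and 11 in Dp5/Dp1 replicate 3, but only 1 in Dp5/Dp1 replicate 4. Control replicate 3 held 10 of the highest values. The lowest values fell on control replicates 4, 1 and 2, with 16, 13 and 13 genes.

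Mrps6 stood above this shift. Its value minus the 2-copy mean of the same array was 0.22, 0.01, 0.32, 0.38 and 0.28 in controls and 0.48, 0.52, 0.66, 0.66 and 0.83 in mutants. The groups did not overlap. The mean was 0.24 ± 0.14 in controls and 0.63 ± 0.14 in mutants (SD, n = 5), a difference of 0.39 ± 0.09, given as a description with no test because it is a score over the members.

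**Figure D3:**
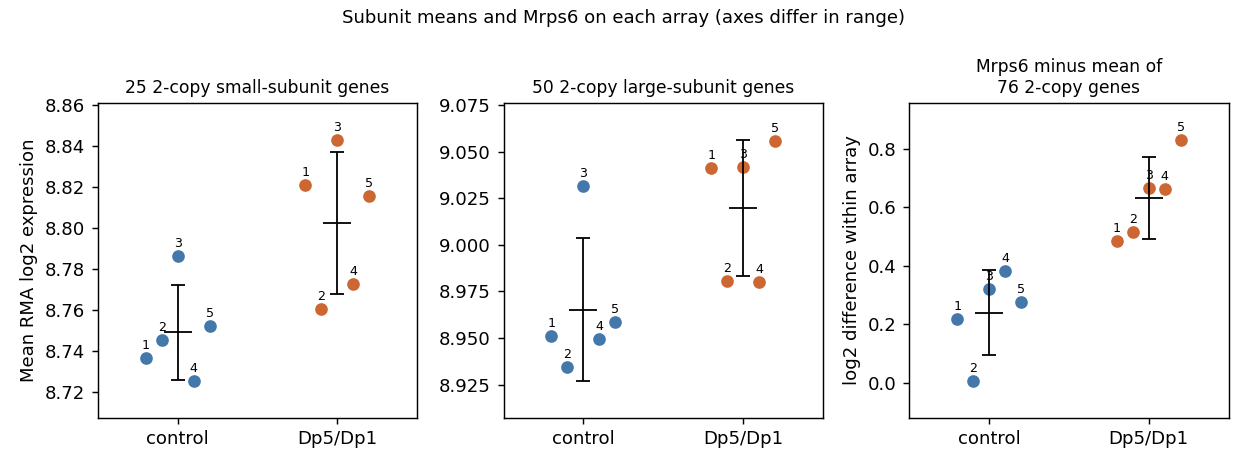
Mean RMA log2 expression of the 25 2-copy small-subunit genes, of the 50 2-copy large-subunit genes, and Mrps6 minus the mean of all 76 2-copy members, on each array, with points numbered by replicate and bars for the mean ± SD of 5 arrays. The axes differ in range. Both subunits order the mice in much the same way, with control replicate 3 high among controls and Dp5/Dp1 replicates 2 and 4 low among mutants, and only in the right panel do the groups not overlap.

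Markers of neighbouring tissue differed between the arrays, and their values are given here beside those of the members. Markers of hippocampal neurons averaged 10.6 to 10.7 on every array. All 8 measured choroid plexus markers had a lower mean in mutants, with array means of 7.18 to 9.49 in controls and 7.27 to 9.09 in mutants. All 6 medial habenula markers had a higher mean, with 7.26 to 7.92 in controls, highest in replicate 3, and 7.37 to 9.02 in mutants, highest in replicates 2 and 5. Among these markers is Chrna3, which the study reports as upregulated in Dp1Rhr and Dp5/Dp1 mice. The study ascribes this to overexpression of a gene in the Dp1Rhr interval. Dp5/Dp1 replicate 2, at the top for the habenula markers, was lowest of the mutants for the 2-copy mean, and replicate 5 was highest. All 6 thalamus markers had a lower mean. Endothelial markers averaged 8.44 to 8.56 in controls and 8.55 to 8.69 in mutants, and 3 of 5 had a higher mean. With both mutants of high habenula marker values left out, the difference of Mrps6 was 0.42. Over the 2-copy members, 62 of 76 then had a higher mean (median 0.04), 64 with choroid plexus markers as a covariate (median 0.05) and 63 with habenula markers added (median 0.04). The part of endothelial or thalamic content in these values was not tested. In whole tissue, fewer cells of a type and less RNA per cell cannot be told apart.

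Other genes of mitochondrial translation were read from lists. Of 26 measured assembly factors of the mitochondrial ribosome, 16 were higher on average (median difference 0.02). None was called by limma, 2 were higher at an unadjusted p under 0.05 and none lower. These were Rbfa, which matures the small-subunit rRNA (0.17 ± 0.05), and Tfb1m, the methyltransferase of that rRNA (0.14 ± 0.05). Of 17 translation factors, 11 had a higher mean, with a median of 0.01. Tufm, the elongation factor that brings charged tRNAs, was the only one past an unadjusted p of 0.05 (0.17 ± 0.07). Slirp, which stabilises mitochondrial mRNAs, came next at 0.08 ± 0.05.

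Of 16 mitochondrial aminoacyl-tRNA synthetases, 8 had a higher mean and 8 a lower one, with a median of 0.00. Cars2 differed by -0.13 ± 0.05 and Lars2 by 0.09 ± 0.04, and neither was called. Among 5 genes of mitochondrial transcription, the lowest p belonged to Tfb2m (-0.04 ± 0.03) and Tefm (-0.04 ± 0.04). Of the 2 mitochondrially encoded genes that could be named, ND3 differed by 0.03 ± 0.03 and COX2 by 0.03 ± 0.03. Of 4 ribosomal proteins whose symbols lack the prefix, 3 had a higher mean, among them Chchd1 (0.14 ± 0.09) and Ptcd3 (0.06 ± 0.03). Mitochondrial housekeeping genes, such as Cs, Vdac1 and Tomm20, had a higher mean in 4 of 9, with a median of -0.01, the lowest p being those of Slc25a4 (0.06 ± 0.03) and Tomm20 (0.04 ± 0.04).

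Beyond translation, 68 of 81 nuclear genes of the respiratory chain and ATP synthase had a higher mean, with a median of 0.04, and Atp5o was the only one called. Of 61 cytosolic ribosomal protein genes, 48 had a higher mean, with a median of 0.02 and none called (limma, 1 higher at an unadjusted p under 0.05). Differences between these lists were not tested.

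**Figure D4:**
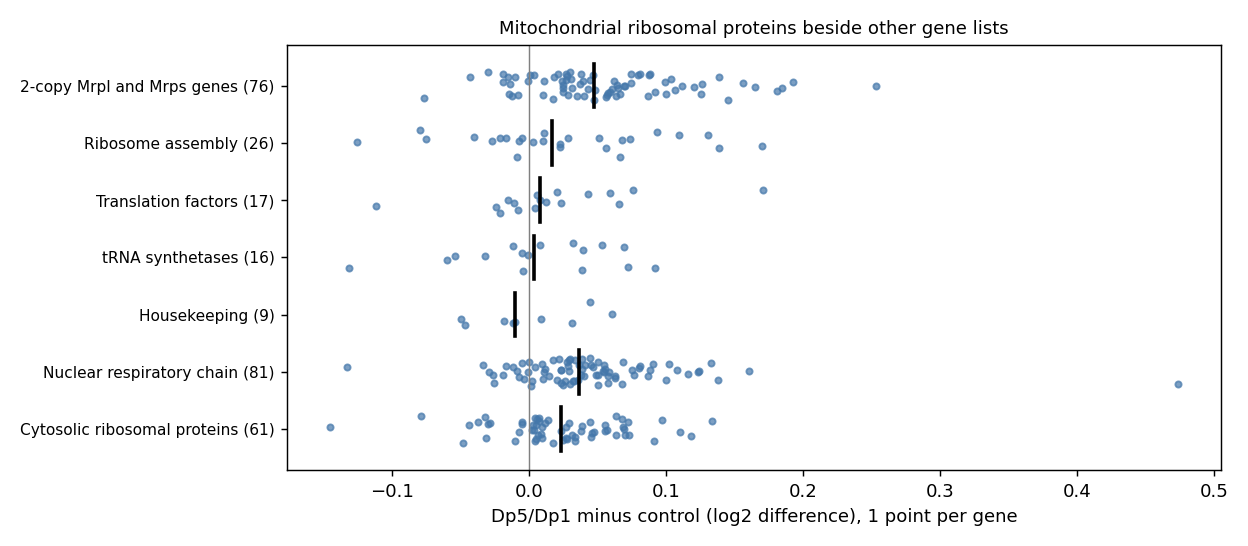
Dp5/Dp1 minus control difference (log2, 1 point per gene, random vertical offset) for the 76 2-copy mitochondrial ribosomal protein genes and 6 other lists, with the number of genes in brackets and a black bar at each median. The median of the 2-copy members is 0.05 and that of the nuclear respiratory chain 0.04, and the point far to the right in the latter is the triplicated Atp5o.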

How the data were processed

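The authors normalized the arrays by RMA and deposited log2 expression values, 1 per probe set and array. RMA, limma and the mm10 build are named in the submitters' processing notes, without versions. RMA draws differences of dim probe sets towards 0. Labels state 200 ng of RNA per target, the study's methods less. Array medians lay between 6.73 and 6.80, and the correlation between arrays, across genes, was 0.996 to 0.999. The number of arrays limits the precision.

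From 35556 probe sets, the 21789 with a single symbol in the platform annotation were kept (1621 had several, 12146 were unnamed here). Where a gene had several, the one of highest mean over the 10 arrays was read. Positions are from RefSeq GRCm38, the assembly of mm10. Groups came from the condition label. Genes were tested by limma 3.58.1 under R 4.3.3 (two-sided lmFit and eBayes, Benjamini-Hochberg over 19938 genes, threshold 0.05), with exact two-sided permutation over 252 assignments for single values. Error values after ± are SE for differences and SD for levels. FCROS was rewritten from its description (25 array pairs, 0.25 trimmed at each end, limits 0.025 and 0.975) and may differ from the package. Scripts were tested on simulated data.

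Members and lists were chosen with earlier results of these data known. Genes named were the chromosome 16 members, Slc5a3, the 10 members with the lowest p, the 4 with the largest positive and the 4 with the largest negative difference, members whose groups did not overlap, Mrps18a, Mrps30, Mrps36, in each list any called gene and the 2 with the lowest p, and the Hsa21-region mitochondrial genes. Other names are examples. The cytosolic ribosomal list left out kinases, a binding protein, a retrogene and pseudogenes with matching symbols. Alternatives covered dim genes, normalization, centring, probe sets, variance model, array weights, replicate block, single arrays, tissue markers, threshold and FCROS.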

Additional observations from a re-analysis of the deposited data

Results flagged for a closer look

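Among the 17 members named and Slc5a3, 3 of 36 groups of 5 arrays held a value set apart from the other 4 by more than Dixon's 95% criterion, as did 10 of the 156 groups over all members and Slc5a3. Chance flags about 1 in 20 groups. Mrpl20 was low in replicate 2 of both groups, at 7.66 in the control against 7.91 to 8.004 in the other 4 controls and at 7.85 in the Dp5/Dp1 mouse against 8.17 to 8.28. Without control replicate 2 its difference was 0.19 and without Dp5/Dp1 replicate 2 it was 0.33. Mrps17 was high in control replicate 3, at 8.25 against 8.02 to 8.08 in the other controls, and without that array its difference was 0.20, with a limma adjusted p of 0.0826.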

How the results depend on the processing

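Mrps6 passed under 3 alternatives. With the replicate block its difference of 0.45 had a limma adjusted p of 0.0398, with choroid plexus markers as a covariate it was 0.48 and under FCROS its f-value was 0.998. By limma, 1 member was called higher with the block and 1 with the covariate, against 0. FCROS passed 10 members as higher, beside 2.84% of all genes. The labels share replicate numbers between groups, but same-numbered arrays deviated together with correlations of -0.35 to 0.29, so the numbers were not read as pairs. Among the members, the block changed no other call. The cause of these changes was not tested. Under the 10 other alternatives Mrps6 stayed between 0.42 and 0.47 without a call. Leaving out each array gave 0.38 to 0.49 for Mrps6, 0.08 to 0.11 for Mrpl39 and 0.29 to 0.40 for Mrps6 minus Mrpl39, with 0 members called either way. No member was called lower under the 23 alternatives run. Small differences of the 2-copy members, with a median SE of 0.0466, lie near what 5 arrays a group can resolve.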

Other observations

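The probe set that names both Ccdc142 and Mrpl53 was not counted among the members. It measured 7.84 ± 0.07 in controls and 7.89 ± 0.05 in Dp5/Dp1 mice (SD, n = 5), a difference of 0.05 ± 0.04 (SE, exact permutation p = 0.246). Members with a GABPA core in the promoter window had a median difference of 0.04 and those without it 0.06. For the NRF1 core the medians were 0.06 with and 0.05 without, and for the YY1 core 0.03 with and 0.06 without. No test was run on these medians.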
